A study of Mus musculus with 5 samples.

Results

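The genes described are 10 calcium-binding proteins of spinal neurons, taken by symbol from a table of 55471 mouse genes. They are the buffers Calb1, Calb2 and Pvalb, the NECAB proteins Necab1 and Necab2, and the neuronal calcium sensors Hpca, Hpcal1, Ncald, Vsnl1 and Ncs1. Each symbol matched 1 gene identifier, and all 10 passed the filter on low counts that left 16052 genes to test. Polyadenylated RNA of spinal cord was sequenced from resting male C57BL/6J mice aged 3 months. Wild type (WT) gave 3 libraries and Lhx1os -/- (KO) gave 2. The title of the study concerns motor neurons and locomotion after loss of Lhx1os, which makes a long RNA with no protein product. The KO line carries, in exon 2 of Lhx1os, an inserted synthetic polyadenylation signal followed by sequences that destabilise the polymerase, placed by Cas9 in fertilised eggs. The labels give no treatment beyond rest and do not say how much of the cord was taken, nor how many founders the line came from.

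Proteins of this kind bind calcium through EF-hands, helix-loop-helix folds whose loop holds the ion. Buffers such as calbindin, calretinin and parvalbumin soak up calcium and shape its rise and fall in the cell. Sensors such as hippocalcin change shape on binding calcium, and many of them then move to membranes through a fatty acid tail and act on other proteins. In the spinal cord some of these genes are widely used to tell neuron classes apart, among them dorsal horn interneurons and the Renshaw cells that inhibit motor neurons.

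The coding sequences of the members, read from GENCODE M21 on GRCm38, held different numbers of matches to the PROSITE EF-hand pattern. There were 5 in Calb2, 4 in Calb1, 2 in Pvalb, 2 in Necab2 and 1 in Necab1, and 3 in each of the 5 calcium sensors. Hpca and Hpcal1 were identical at 86.0% of their 579 coding bases, with a longest identical stretch of 38 bases. Hpca and Ncald were identical at 78.6%, with a longest identical stretch of 46 bases, and Vsnl1 and Ncs1 at 63.5%. Calb1 and Calb2 were identical at 62.3% and Necab1 and Necab2 at 52.3%, with no identical stretch above 14 bases in either pair. Coding bases 205 to 294 of Hpca and Hpcal1 are shown to give the degree of likeness. They hold a calcium-binding loop at bases 217 to 252, and capitals mark the 9 of 90 bases at which the 2 genes differ.
Hpca, exon on the minus strand, GRCm38 chr4:129118448-129118537: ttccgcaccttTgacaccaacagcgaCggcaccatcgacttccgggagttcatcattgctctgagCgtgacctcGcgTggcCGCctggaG
Hpcal1, exon on the plus strand, GRCm38 chr12:17786375-17786464: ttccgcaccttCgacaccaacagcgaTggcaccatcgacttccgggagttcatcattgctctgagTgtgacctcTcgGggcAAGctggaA
In the printed stretch the differing bases are spread so that a run of 38 bases is shared. Reads lying wholly in such a run could come from either gene, and the treatment of such reads by the counting is not given in the sources used here.

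Library totals lay between 15973063 and 19437533 counts. Lhx1os, the targeted gene, had 56, 66 and 51 counts in WT replicates 1 to 3 and 13 and 11 in KO replicates 1 and 2 (log2 fold change −2.13, SE 0.28, adjusted p = 0.059 in edgeR's quasi-likelihood test with Benjamini-Hochberg adjustment). The libraries were not alike in the tissue they held. WT replicate 2 carried transcripts of sensory ganglion neurons, whose cell bodies lie outside the cord. The summed level of Avil, Trpv1, Mrgprd, Scn10a and Scn11a was 37.6 CPM (counts-per-million of the library total, after TMM scaling) there and 0.429 to 0.923 CPM in the other 4 libraries. Over the whole list of 13 ganglion genes, which holds the more widely expressed Ntrk2, the sums were 563.8 CPM in that library and 467.3 to 491.7 CPM in the others. KO replicate 2 carried the most lumbar and sacral Hox transcripts, at 59.9 CPM summed over 9 genes, followed by WT replicate 3 at 27.7 CPM, whereas the other 3 libraries held 6.56 to 9.22 CPM. WT replicate 1 and KO replicate 1 had the highest sums over 10 motor neuron genes, 587.9 and 646.3 CPM, against 436.0 to 515.3 CPM in the others. The part of these differences in the results below was not tested, and the members' log2 fold changes are given with and without WT replicate 2. In whole tissue, fewer cells of a type and less RNA per cell cannot be told apart.

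Expression of the 10 genes was not shown to differ between KO and WT spinal cord. None of the 10 passed an adjusted p of 0.05 in edgeR, where 3 of all 16052 genes did (0.0187%). The smallest adjusted p was 0.697, for Hpcal1. At an unadjusted p under 0.05 there were 0 of 10 members, against 7.57% of all genes. DESeq2 also called 0 members, against 0.265% of all genes, and limma-voom 0, against 0.00623%. In log2 fold change, 5 members were above 0 and 5 below, from −0.18 for Necab1 to 0.13 for Calb2. The median of the 10 was 0.0026 and that of all tested genes 0.0044, and the median absolute log2 fold change was 0.097 for the members and 0.098 for all genes. The 95% intervals of the log2 fold changes reached at most 0.38 upward, in Calb2, and −0.42 downward, in Necab1. Differences of up to 1.298-fold higher and 1.34-fold lower thus lay inside the intervals of at least 1 member. Without WT replicate 2, edgeR called 0 members, against 0.00629% of all genes.

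**Figure D1:**
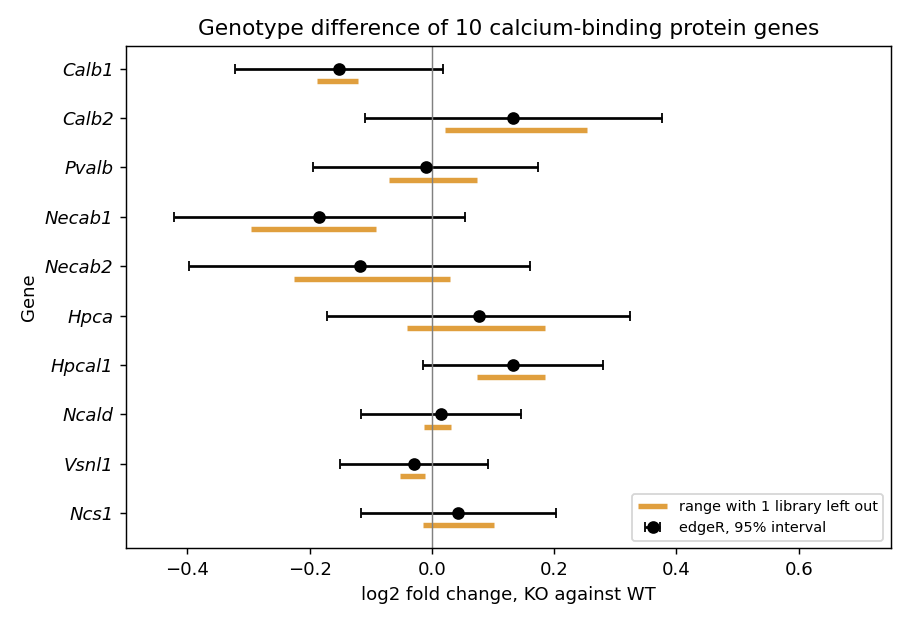
Log2 fold change of each gene, KO against WT (x axis), with its 95% interval in edgeR (black, 3 WT and 2 KO libraries) and the range of values when each library was left out in turn (orange bars). All 10 intervals include 0, and the widest, for Necab2, runs from −0.40 to 0.16.

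The groups did not overlap for 2 of the 10 members (20%), against 24.9% of all tested genes. These were Calb1, lower in both KO libraries, and Hpcal1, higher in both. Without WT replicate 2 the same 2 members did not overlap, against 41.9% of all genes. The count depended on WT replicate 1: without it, 7 members did not overlap, against 40.1% of all genes, adding Calb2, Pvalb, Necab1, Necab2 and Ncs1. In that comparison of 2 WT with 2 KO libraries, edgeR called 0 members, where 58 of all 15960 genes tested passed. An unadjusted p under 0.05 was found for 3 members (Calb1, Calb2 and Necab1), where 9.28% of all genes had one. The smallest adjusted p of a member there was 0.209, for Necab1.

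In level per length of exon, visinin-like 1 led the members by a wide margin. Over the 5 libraries Vsnl1 stood at 357.5 ± 5.63 CPM per kilobase (SD, n = 5) and lay above every other member in each of them. Calb2 (102.9 ± 12.4), Ncs1 (87.3 ± 5.23) and Pvalb (79.4 ± 5.73 CPM per kilobase) came next. The library values of Calb2 and Ncs1 overlapped, as did those of Ncs1 and Pvalb, so these neighbours are not ordered beyond their spread. Hpcal1 (41.4 ± 2.60) and Hpca (27.8 ± 3.19 CPM per kilobase) followed, with no overlap between them at this length. With the longest transcript as length they stood at 46.0 ± 2.88 and 43.9 ± 5.04 CPM per kilobase. The gap between Hpcal1 and Hpca thus depended on the length used. Necab2 (17.9 ± 2.41) and Ncald (17.6 ± 0.467 CPM per kilobase) could not be ordered. Necab1 (11.98 ± 1.53) and Calb1 (7.68 ± 0.509 CPM per kilobase) were lowest. Ncald has 8.58 kilobases of annotated exon but a longest transcript of 3.73 kilobases, and with the latter as length it stood at 40.4 ± 1.07 CPM per kilobase and above Necab2. Together the 10 genes took 0.178% to 0.182% of the counts of each library.

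**Figure D2:**
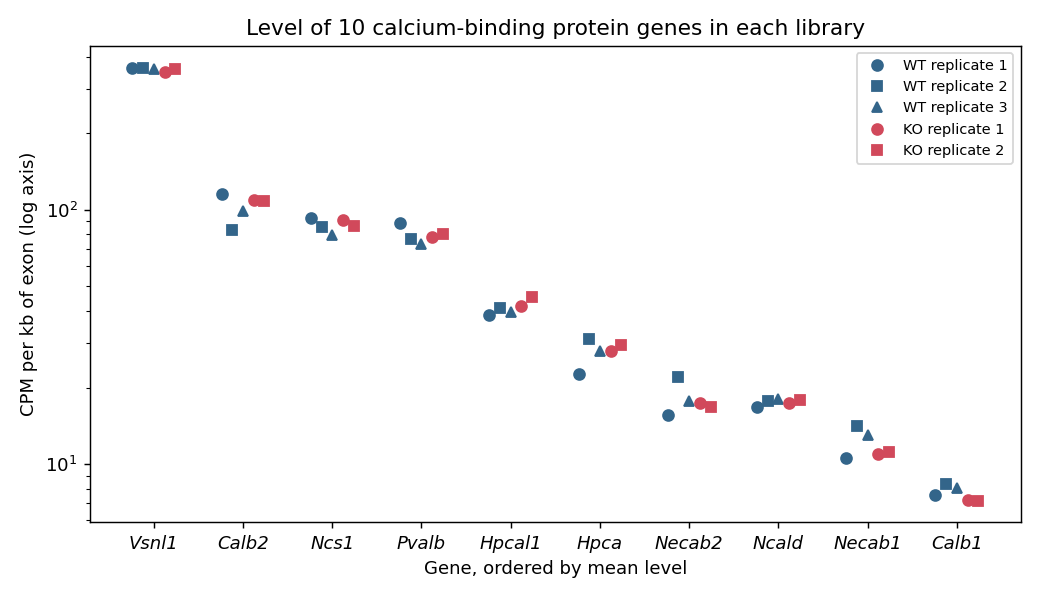
Level of each gene in each library in CPM per kilobase of exon (y axis, log scale), with genes ordered by their mean over the 5 libraries (blue WT, red KO). Vsnl1 stands apart at the top at 357.5 and Calb1 is lowest at 7.68 CPM per kilobase, and the colours mix in most genes.

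Among the buffers, none passed, with a log2 fold change below 0 for Calb1 and above 0 for its close relative Calb2. Calb1 (ENSMUSG00000028222, chromosome 4, 15881264 to 15908064, plus strand) encodes calbindin-D28k, found in Renshaw cells and parts of the dorsal horn. Its level was 36.8, 40.3 and 39.2 CPM in the WT libraries and 35.0 and 34.8 CPM in KO. Both KO values lay below every WT value, by a narrow margin from WT replicate 1. KO against WT gave −0.15 on the log2 scale (SE 0.08, 95% interval −0.32 to 0.02), with an adjusted p of 0.700 in edgeR. Without WT replicate 2 it was −0.12 (adjusted p = 0.644, edgeR).

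Calb2 (ENSMUSG00000003657, chromosome 8, 110137502 to 110168210, minus strand) encodes calretinin, a buffer of many excitatory neurons of the superficial dorsal horn. It stood at 200.5, 145.1 and 172.7 CPM in WT and at 189.9 and 188.8 CPM in KO. The KO libraries were nearly equal and fell inside the WT range, which spanned 1.38-fold between WT replicates 2 and 1. The log2 fold change was 0.13 (SE 0.11, adjusted p = 0.792 in edgeR). WT replicate 2, the library with ganglion transcripts, was also the lowest for Calb2, and without it the value dropped to 0.021 (95% interval −0.15 to 0.20). Without WT replicate 1 the value was 0.25, with an unadjusted p of 0.011 and an adjusted p of 0.341 in edgeR.

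Pvalb (ENSMUSG00000005716, chromosome 15, 78191114 to 78206400, minus strand) encodes parvalbumin, a buffer of fast-firing interneurons that proprioceptive sensory neurons and fast skeletal muscle also make. Its WT values were 92.3, 80.2 and 76.2 CPM and its KO values 81.3 and 83.3 CPM. Both KO libraries lay within the WT range. In log2 fold change the gene stood at −0.0099 (SE 0.083, adjusted p = 0.987 in edgeR). Skeletal muscle genes were unevenly present. The 14 genes of that list summed to 27.5 CPM in KO replicate 1 and to 9.48 to 16.7 CPM in the others. Myh4 stood at 4.54 CPM in KO replicate 1 against 0.0616 to 0.952 CPM elsewhere. Casq1, also at 4.54 CPM in KO replicate 1, was instead highest in WT replicate 1, at 6.01 CPM. The part of muscle or ganglion RNA in the values of Pvalb was not tested. The log2 fold change of Pvalb without WT replicate 2 was −0.034 (adjusted p = 0.925 in edgeR). The sum of the 3 buffers lay at 329.6, 265.6 and 288.1 CPM in WT and at 306.2 and 307.0 CPM in KO.

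The NECAB genes, which encode neuronal proteins with an EF-hand near the N-terminus, had log2 fold changes below 0, did not pass, and were among the most variable members over the WT libraries. Necab1 (ENSMUSG00000040536, chromosome 4, 14952245 to 15149794, minus strand) stood at 55.3, 73.9 and 68.4 CPM in WT. Its KO values were 57.6 and 58.4 CPM, above WT replicate 1 and below the other 2. The log2 fold change was −0.18 (SE 0.11, 95% interval −0.42 to 0.05, adjusted p = 0.725 in edgeR), the lowest of the 10. It moved to −0.30 without WT replicate 1 and to −0.09 without WT replicate 2. A part of its exons, 7.83% of the bases, is shared with Gm11837 on the opposite strand, and the strand setting of the counting is not given in the sources used here.

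Necab2 (ENSMUSG00000031837, chromosome 8, 119446719 to 119472640, plus strand) stood at 32.7, 45.9 and 37.2 CPM in WT and at 36.3 and 35.0 CPM in KO. Its highest library was WT replicate 2, and the KO values lay inside the WT range. Its log2 fold change was −0.12 (SE 0.13, adjusted p = 0.843 in edgeR), and without WT replicate 2 it changed sign to 0.029 (95% interval −0.18 to 0.24). The direction of Necab2 thus rested on the library with ganglion transcripts.

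Of the 5 calcium sensors, 4 had log2 fold changes above 0 and Vsnl1 lay below. Hpca (ENSMUSG00000028785, chromosome 4, 129111570 to 129122036, minus strand) encodes hippocalcin, whose fatty acid tail is exposed when calcium binds. Its values were 66.0, 90.7 and 81.4 CPM in WT and 81.3 and 86.3 CPM in KO. WT replicate 1 was the low library and the KO values fell between the WT extremes. Its log2 fold change was 0.08 (SE 0.11, adjusted p = 0.893 in edgeR). It became 0.19 without WT replicate 2 (adjusted p = 0.569) and −0.040 without WT replicate 1 (adjusted p = 0.925), both in edgeR. Its exons share 1.95% of their bases with Tmem54 on the opposite strand.

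Hpcal1 (ENSMUSG00000071379, chromosome 12, 17690856 to 17791933, plus strand), hippocalcin-like 1, is the close relative whose bases are printed above. It stood at 65.6, 69.9 and 67.3 CPM in WT and at 71.2 and 77.0 CPM in KO. Both KO libraries lay above all WT libraries, and the log2 fold change was 0.13 (SE 0.07, 95% interval −0.01 to 0.28, adjusted p = 0.697 in edgeR). KO replicate 2, the library richest in lumbar and sacral Hox transcripts, was the highest, and without it the value was 0.074. Without WT replicate 2 the log2 fold change was 0.16, with an unadjusted p of 0.046, where 10.2% of all genes were under 0.05, and an adjusted p of 0.484 in edgeR.

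Ncald (ENSMUSG00000051359, chromosome 15, 37366175 to 37792570, minus strand) encodes neurocalcin delta, a sensor that binds membranes when calcium rises. It was even across the libraries, at 144.2, 151.6 and 154.3 CPM in WT and 149.8 and 153.5 CPM in KO. Its log2 fold change was 0.015 (SE 0.059, 95% interval −0.12 to 0.15, adjusted p = 0.967 in edgeR). It was 0.023 without WT replicate 2 (adjusted p = 0.925 in edgeR). Its exons share bases with Gm28221 on the opposite strand and Gm49397 on the same strand, at most 4.04% with a single gene.

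Vsnl1 (ENSMUSG00000054459, chromosome 12, 11325242 to 11436613, minus strand), the visinin-like 1 gene, was both the most abundant member and the steadiest. It had 11099 to 13889 counts per library, and stood at 705.0, 709.5 and 700.2 CPM in WT and 680.7 and 701.0 CPM in KO. KO replicate 1 was the lowest library and KO replicate 2 lay among the WT values. The log2 fold change was −0.03 (SE 0.05), and its 95% interval of −0.15 to 0.09 was the narrowest of the 10 (adjusted p = 0.915 in edgeR). Leaving out WT replicate 2 gave −0.024 (adjusted p = 0.911 in edgeR).

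Ncs1 (ENSMUSG00000062661, chromosome 2, 31245823 to 31295989, plus strand) encodes neuronal calcium sensor 1, a regulator of transmitter release and of a phosphatidylinositol kinase. Its values were 433.4, 400.0 and 370.5 CPM in WT and 423.8 and 403.4 CPM in KO, all KO values within the WT range. For KO against WT its log2 fold change was 0.04 (SE 0.07, adjusted p = 0.904 in edgeR). Without WT replicate 3, its lowest library, the value was −0.015, and without WT replicate 2 it was 0.041 (adjusted p = 0.897 in edgeR). Summed over the 5 sensors, levels ran from 1373.8 to 1421.7 CPM in WT and were 1406.9 and 1421.2 CPM in KO.

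**Figure D3:**
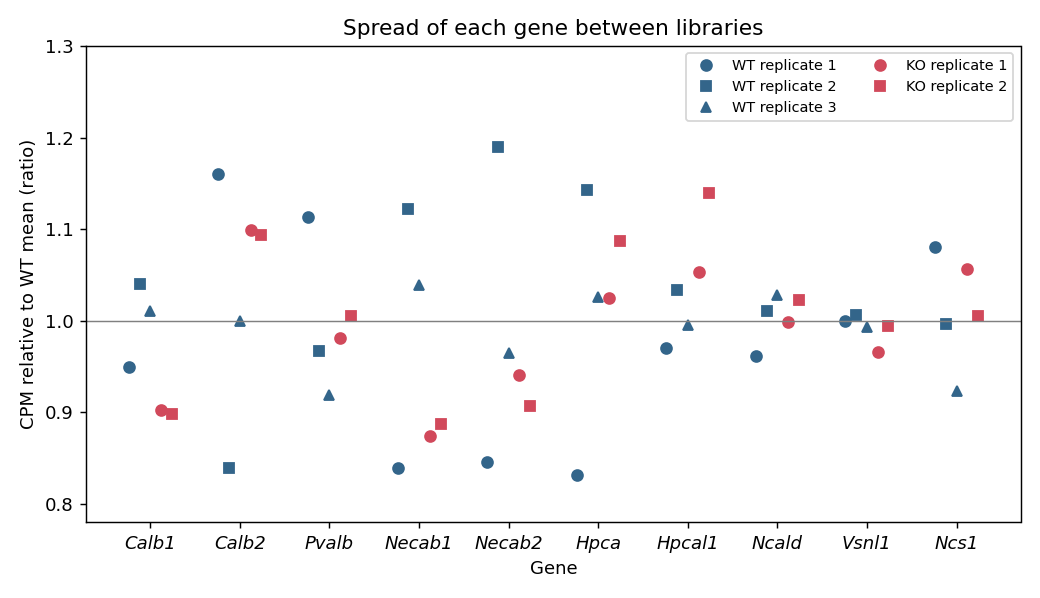
CPM of each gene in each library divided by its WT mean (y axis, ratio), with WT in blue and KO in red and the replicate number given by the marker shape. WT replicate 1 is lowest for Necab1, Necab2 and Hpca and highest for Calb2, Pvalb and Ncs1, and all Vsnl1 values lie close to 1.

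The members differed widely in their spread among the WT libraries. The SD of log2 CPM over the 3 WT libraries was 0.25 for Necab2, 0.23 for Calb2, 0.23 for Hpca and 0.22 for Necab1. These values were larger than those of at least 97.1% of the 6637 genes with a mean of at least 30 CPM, whose median was 0.074. Counting error alone would give an SD of 0.026 for Calb2 and 0.055 for Necab2. Vsnl1 was at the other end with an SD of 0.0095, which is less than its counting error of 0.013, and 1.25% of those genes had a smaller one. Hpcal1 (0.046) and Ncald (0.051) were also below the median. Between the 2 KO libraries the ratio of the higher to the lower value was at most 1.08 over the 10 members, reached by Hpcal1.

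The variable members did not follow 1 pattern over the libraries. Necab1, Necab2 and Hpca were lowest in WT replicate 1 and highest in WT replicate 2. Calb2, Pvalb and Ncs1 were highest in WT replicate 1, and of these Calb2 was lowest in WT replicate 2 and Pvalb and Ncs1 in WT replicate 3. Over the 16 excitatory interneuron genes, all measured and none of them a member, the summed level was 590.3, 710.0 and 672.9 CPM in WT and 613.3 and 644.5 CPM in KO. Of these 16 genes, 12 were lowest in WT replicate 1, 10 were highest in WT replicate 2, and 7 were both. Lmx1b, a dorsal horn transcription factor and 1 of the 7, stood at 13.4, 21.6 and 21.4 CPM in WT and 16.9 and 18.5 CPM in KO. Slc17a6, the vesicular glutamate transporter of these neurons, was lowest in KO replicate 1, at 221.2, 224.4 and 213.4 CPM in WT and 200.5 and 212.7 CPM in KO. Both were picked from the list with their values in view. Other lists shared parts of this pattern. Lowest in WT replicate 1 were also 8 of 10 meningeal fibroblast and 7 of 9 Schwann cell genes. Highest in WT replicate 2 were also 12 of 13 sensory ganglion and 8 of 10 cervical and brachial Hox genes. Of 15 inhibitory interneuron genes, 6 were lowest in WT replicate 1, 5 were highest in WT replicate 2, and 2 were both.

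WT replicate 1 and KO replicate 1 lay above the other 3 libraries for 8 of the 10 motor neuron genes. Slc5a7, the choline transporter, stood at 143.8, 81.6 and 96.0 CPM in WT and at 146.8 and 101.0 CPM in KO. The summed 10 genes ranged from 436.0 to 587.9 CPM in WT and were 646.3 and 515.3 CPM in KO. The 14 pan-neuronal genes, among them Snap25 and Syt1, summed to 11160 to 12792 CPM in WT and to 12891 and 12265 CPM in KO. In edgeR 0 of the pan-neuronal, excitatory, inhibitory and motor neuron genes passed, with smallest adjusted p-values from 0.578 (motor neuron) to 0.714 (pan-neuronal). At an unadjusted p under 0.05 there were 2 of 10 motor neuron genes and 0 of the other 3 lists, against 7.57% of all genes, and DESeq2 and limma-voom passed 0 of all 4 lists. Log2 fold changes were above 0 for 9 of 10 motor neuron genes (median 0.23) and 13 of 14 pan-neuronal genes (median 0.085). They were above 0 for 10 of 15 inhibitory genes (median 0.047) and below 0 for 13 of 16 excitatory genes (median −0.090). Of all tested genes, 51.3% were above 0. Genes of 1 list can vary together in a library and are not separate observations. The part of these lists in the values of the members was not tested.

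**Figure D4:**
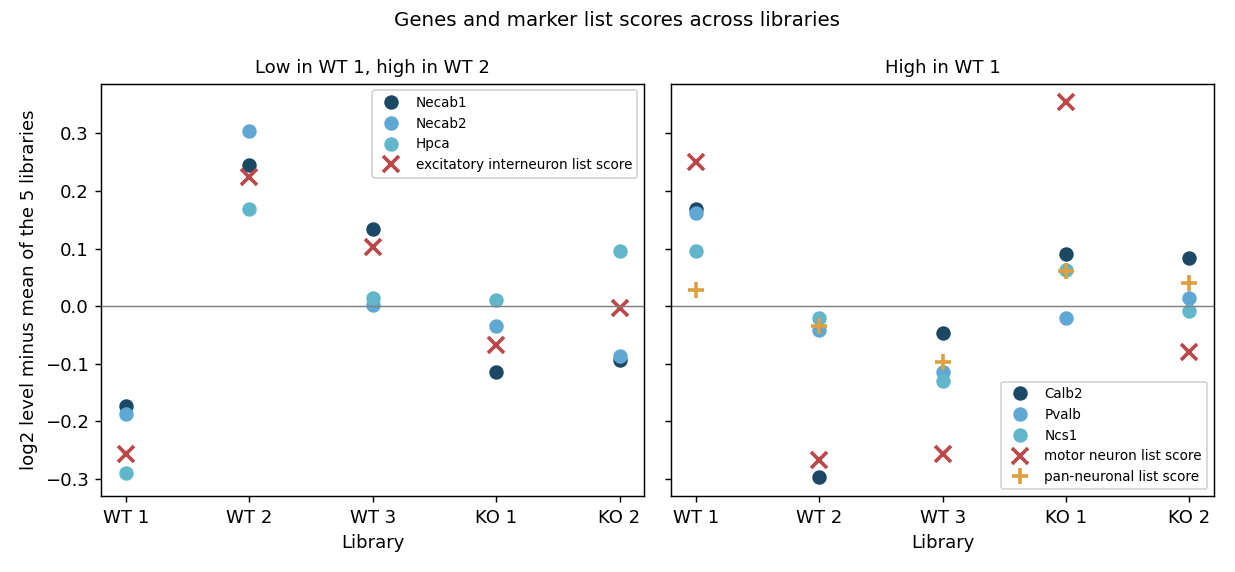
Log2 level of 6 members (circles) and mean log2 score of 3 marker lists (crosses and plus signs) in each library, less its mean over the 5 libraries (y axis). On the left Necab1, Necab2, Hpca and the excitatory interneuron score are lowest in WT 1 and highest in WT 2. On the right Calb2, Pvalb and Ncs1 are highest in WT 1, with the motor neuron score high in WT 1 and KO 1. The genes of each panel were grouped after their values were seen. Other lists, not drawn, also held genes lowest in WT 1 or highest in WT 2.

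Likeness of pattern was measured as the root mean square difference in log2 CPM, centred on each gene, over the 5 libraries. For each member, the nearest of 89 genes was taken from the other members and the other calcium genes. How close the nearest of 89 genes would lie by chance over 5 libraries was not tested. Necab2 was closest to Necab1 (0.074), while its own deviation from its mean was 0.17. Ncs1 was closest to Atp2a2, the calcium pump of the endoplasmic reticulum (ER), at 0.016 against an own deviation of 0.078. Hpcal1 was closest to the EF-hand gene Efhd2 (0.034, own deviation 0.080) and Ncald to the kinase gene Camk4 (0.024, own deviation 0.035). Calb1 was closest to the kinase gene Camk1 (0.049, own deviation 0.085) and Pvalb to the mitochondrial uptake gene Micu3 (0.048, own deviation 0.091). Calb2 was closest to Chp1 (0.070), Necab1 to the plasma membrane pump gene Atp2b4 (0.072) and Hpca to the exchanger gene Slc8a2 (0.077). The own deviation of each of these members was 0.16. For Vsnl1 the nearest gene, Sdf4, differed by 0.021, no less than the deviation of Vsnl1 itself (0.020).

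The other genes of calcium handling gave 0 of 80 passing in edgeR, against 0.0187% of all genes, out of 83 listed. Of the 80, 44 were above 0 and 36 below, where 51.3% of all genes were above 0. The median log2 fold change of the 80 was 0.014, and 8 (10.0%) had an unadjusted p under 0.05, against 7.57% of all genes. DESeq2 passed 1 of them, Hspa5, and limma-voom 0. The groups did not overlap for 17 (21.2%), against 24.9% of all genes.

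Among the other EF-hand sensors and buffers, 20 of 23 were tested, with 11 above and 9 below 0 and 0 passing in edgeR, DESeq2 or limma-voom. At an unadjusted p under 0.05 there were 4 of 20, against 7.57% of all genes. Cabp1, a calmodulin-like partner of channels, stood at 78.1, 79.3 and 67.8 CPM in WT and at 87.7 and 84.9 CPM in KO, higher in both KO libraries (log2 fold change 0.20, SE 0.08, adjusted p = 0.626 in edgeR). S100a6 stood at 18.4, 26.7 and 29.7 CPM in WT and at 17.7 and 19.3 CPM in KO, and its groups overlapped (−0.44, SE 0.17, adjusted p = 0.641 in edgeR). Without WT replicate 1 S100a6 was at −0.61 and passed in edgeR (adjusted p = 0.042), where 58 of all 15960 genes tested passed. Without WT replicate 2 it was at −0.38, with an adjusted p of 0.568 in edgeR. The 10 genes of the meningeal fibroblast list were all tested, had log2 fold changes below 0 and did not pass, and their sums lay at 1083, 1358 and 1638 CPM in WT and at 1066 and 1093 CPM in KO. Their part in the value of S100a6 was not tested. S100b and S100a1, the most abundant of the list per length, were at −0.04 (SE 0.08) and −0.10 (SE 0.07).

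Calmodulin and its targets were measured in full, with 11 of 22 above and 11 below 0 and 0 passing, and 0 at an unadjusted p under 0.05. Calm2, a calmodulin gene, had a log2 fold change of 0.015 (SE 0.058). Camkk1, an activating kinase of the calmodulin kinase cascade, stood at 153.8, 154.9 and 145.8 CPM in WT and at 168.6 and 161.8 CPM in KO (0.12, SE 0.06, adjusted p = 0.682 in edgeR). Pcp4l1, related to the calmodulin regulator Pcp4, was at 0.13 (SE 0.07). Of the 13 pumps and exchangers, 10 were above 0, 3 below and 0 passed. Atp2a2 was at 0.014 (SE 0.070), Slc24a2 at 0.07 (SE 0.07), Atp2b3 at 0.12 (SE 0.08) and the mitochondrial exchanger gene Slc8b1 at 0.17 (SE 0.12).

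Of the 15 genes of calcium release and store entry, 11 were above 0, 4 below and 0 passed. The release channel gene Itpr3 stood at 21.7, 22.3 and 21.5 CPM in WT and at 28.8 and 22.1 CPM in KO, so that its log2 fold change of 0.22 (SE 0.11) rested on KO replicate 1 and was 0.012 without it. Its exons share bases with other genes, among them Itpr3os on the opposite strand, at most 2.58% with a single gene. The mitochondrial uniporter gene Mcu was at 0.10 (SE 0.09), Micu3 at 0.0098 (SE 0.068) and Micu2 at −0.07 (SE 0.07).

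The last list held the ER genes Calr, Canx, Hsp90b1 and Hspa5, and also Sdf4, Rcn1, Rcn2, Calu, Nucb1 and Nucb2. Of these 10 genes of calcium-binding proteins, 9 were below 0 and 0 passed in edgeR, with a median log2 fold change of −0.15. There were 4 of 10 at an unadjusted p under 0.05, against 7.57% of all genes, 1 passed in DESeq2, against 0.265%, and 0 in limma-voom, against 0.00623%. Calr, encoding the calcium store protein calreticulin, stood at 298.3, 294.6 and 336.7 CPM in WT and at 265.7 and 265.9 CPM in KO (−0.22, SE 0.07, adjusted p = 0.525 in edgeR). Hsp90b1, encoding the chaperone Grp94, was at −0.25 (SE 0.07, adjusted p = 0.432 in edgeR). Its exons share bases with other genes, at most 10.3% with a single gene. Hspa5, encoding the chaperone BiP, stood at 297.6, 293.3 and 346.0 CPM in WT and at 204.4 and 213.2 CPM in KO (−0.58, SE 0.08). It missed the threshold in edgeR (adjusted p = 0.059) and passed in DESeq2 (adjusted p = 1.22e-08). For these 3 chaperone genes, named by smallest p or highest level, both KO libraries lay below all WT libraries. Over all genes, 24.9% had groups that did not overlap, in either direction. That share is no measure for these genes, since Hspa5 and Hsp90b1 were named for the smallest p of this same comparison. Hspa5 was at −0.62 without WT replicate 2, with an adjusted p of 0.177 in edgeR. The difference between this list and the 10 neuronal genes was not tested.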

How the data were processed

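The authors deposited 1 table of raw read counts per gene for the 5 libraries. Per the labels' protocols, libraries were made from column-purified, DNase-treated RNA with the TruSeq Stranded mRNA kit. The tools named in the submitters' processing notes are cutadapt, Trimmomatic, STAR 2.5.2b and HTSeq, with the GRCm38 build; for annotation release and strand setting, nothing is given in the sources used here. Groups and replicate numbers came from sample titles. The labels carry a separate number per library but do not name animals or litters, so p-values measure only how far these samples spread, which may be technical. Libraries of a group differed beyond counting noise (chi-square per degree of freedom 4.23 to 7.98).

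Genes were filtered with filterByExpr (minimum count 10, minimum total 15), scaled by TMM and tested with edgeR 4.0.16 (quasi-likelihood F test, R 4.3.3, no covariates, Benjamini-Hochberg over all 16052 genes, threshold 0.05). Log2 fold changes carry standard errors (SE), and 95% intervals use the moderated degrees of freedom. Symbols, positions and exon lengths are from GENCODE M21 (GRCm38). Coding sequences were compared with Biopython 1.88. Alternatives were DESeq2 1.42.0, limma-voom 3.58.1, other size factors and filters, robust dispersion, a replicate block, a threshold of 0.1 and each library left out. The fits were tested on simulated data.

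The members and gene lists were chosen with earlier results of these data known. Named genes are all members and, per list of other calcium genes, those passing, the 2 of smallest p and the 2 most abundant per length; 1 gene that this rule picks is not reported here. For list scores, log2 values carry a pseudocount of 1 CPM.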

Additional observations from a re-analysis of the deposited data

How the results depend on the processing

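No member passed under any alternative, and the count of called members stayed at 0 in all of them, including a threshold of 0.1. The smallest adjusted p of a member under any alternative was 0.209 (edgeR, without WT replicate 1). The count over all genes, 3, became 6 with DESeq2 size factors, 96 with no filter on low counts, 40 in DESeq2, 1 in limma-voom, 12 with robust dispersion, 15 at a threshold of 0.1 and 0 to 58 with 1 library left out (58 without WT replicate 1, 10 without WT replicate 3, 1 without WT replicate 2, 0 without KO replicate 1). With 1 KO library left, that library is assumed to vary like the WT ones. The count of members whose groups do not overlap ranged from 2 to 7 with 1 library left out, an alternative added after the data were seen. It was 7 without WT replicate 1, against 40.1% of all genes. With any other library left out it was 2 or 3, against 33.7% to 52.8% of all genes. With the longest transcript as length, 8 of 10 members kept their rank.

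Of 120 member values under alternatives, 8 changed sign. With 1 library left out, log2 fold changes ran from −0.070 to 0.073 for Pvalb, −0.23 to 0.029 for Necab2, −0.040 to 0.19 for Hpca, −0.013 to 0.032 for Ncald and −0.015 to 0.10 for Ncs1. Of the other calcium genes, S100b ran from −0.12 to 0.0095, Calm2 from −0.017 to 0.030, Atp2a2 from −0.040 to 0.067 and Micu3 from −0.024 to 0.062. Hspa5 passed in 7 alternatives.

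Replicate numbers 1 and 2 occur in both groups, but the labels do not say that they pair animals, so they are not treated as pairs. Deviations of same-numbered libraries correlated at 0.058 and 0.0020. Deviations of the 2 KO libraries from their mean mirror each other, so these are not separate checks. They cannot show whether same-numbered libraries share an effect. With the replicate block, edgeR called 25 genes and 0 members. The log2 fold changes turned sign for Ncs1 (−0.010), S100b (0.0076), Atp2a2 (−0.036) and Micu3 (−0.0051). Replicate number 3 occurs only in WT, so with the block WT replicate 3 adds nothing to the difference between KO and WT. The block is thus close to leaving that library out and is no separate check of pairing. Without WT replicate 3 and with no block, the values were −0.015 for Ncs1, −0.0023 for S100b, −0.040 for Atp2a2 and −0.011 for Micu3. Causes of the remaining differences were not tested. The members had 549 to 13889 counts per library, and the number of libraries, 2 of KO, limits the precision.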
